A study of Rattus norvegicus with 12 samples.

Results

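Voltage-gated calcium channel subunits were followed in rat vascular smooth muscle cells (RVSMCs) after knockdown of the long non-coding RNA *Alivec*, with and without angiotensin II (AngII). The 10 genes were the pore subunits *Cacna1c*, *Cacna1d*, *Cacna1g* and *Cacna1h*, the β subunits *Cacnb1*, *Cacnb2*, *Cacnb3* and *Cacnb4*, and the α2δ subunits *Cacna2d1* and *Cacna2d2*, found by the gene symbol that the platform gives to a probe set. Of these, 9 genes had a probe set, 1 each, among 15037 named genes on 23188 probe sets. No probe set used here carried the symbol or the gene identifier of *Cacna1d*, and it was not analysed here. The set was chosen by a measured value, the fall of *Cacnb2* after *Alivec*Gap in AngII-treated cells. Every value of the 10 genes from that comparison, and every AngII value of *Cacnb2*, is therefore given as a description without a test. Intervals printed with these values show the scatter of the arrays and are not read as tests.

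RVSMCs came from de-endothelialized thoracic aortas of male Sprague-Dawley rats that were 12 weeks old and were used at passages 3 to 6. Cells were transfected with 100 nM of a GapmeR (*Alivec*Gap), an antisense oligonucleotide that has cellular RNase H cut the *Alivec* RNA, or with a negative control GapmeR (NCGap, spelled NGGap in the sample titles). Transfection lasted 48 h in the labels, while the methods have a serum-free phase of 24 h and RNA taken at up to 72 h. Cells then received 100 nM AngII for 3 h or an equal volume of PBS, so that each GapmeR had 3 arrays under PBS and 3 under AngII, 4 groups in all. A single GapmeR stood for the knockdown in all of the *Alivec*Gap arrays, no probe set used here carried the name *Alivec*, and its knockdown was not measured on these arrays. The labels call the replicates biological and do not say whether they came from separate cultures or animals, so the tests weigh differences against the scatter of these arrays only. Values are log2 signals as deposited, a difference of 1 being a 2-fold change, and signals under 6 were treated by the methods as no or low expression.

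Voltage-gated calcium channels open when the cell membrane depolarizes and let calcium into the cell, which in arterial smooth muscle sets contraction and also feeds calcium-dependent transcription. The α1 subunit forms the pore. The β subunit binds the pore from inside the cell, brings it to the membrane and shapes its gating, and the α2δ subunit is an extracellular partner that raises the number of channels at the surface. L-type channels built on the product of *Cacna1c* carry most of the calcium current of arterial smooth muscle, and T-type channels built on *Cacna1g* and *Cacna1h* open at more negative voltages and need no β subunit. AngII acts through a G protein-coupled receptor that releases calcium from stores and changes the opening of these channels.

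With NCGap, AngII was accompanied by a *Cacnb2* signal 1.87-fold that with PBS, and with *Alivec*Gap its signal was lower both with PBS (0.722 of NCGap) and with AngII (0.513 of NCGap). *Cacna1c* was lower with *Alivec*Gap to a similar degree with PBS (0.774) and with AngII (0.760). *Cacnb3* differed with AngII by -0.25 with NCGap and by -0.10 with *Alivec*Gap, both under 1.2-fold, and these responses were not shown to differ. Only *Cacnb2*, lower with *Alivec*Gap in PBS, and *Cacnb3*, lower with AngII and NCGap, passed the adjusted test in a comparison they were tested in. In these comparisons 0.203% and 17.9% of all tested probe sets were called lower. The *Cacnb3* call was 1 among 6 subunits tested, no more than the share of 17.9% would give. Of 22 other settings, 13 lost the *Cacnb2* call and 4 the *Cacnb3* call. The *Cacnb2* test took its spread from all groups, so it is not independent of the arrays by which the set was chosen. With only the PBS groups fitted *Cacnb2* was not called. *Cacna1c* passed the adjusted test in no comparison of the main fit, and the signals of *Cacnb4* and *Cacna1h* lay under log2 6 on nearly all arrays. The samples are whole cell populations, in which fewer cells that express a gene and less RNA per cell cannot be told apart.

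Upstream sequence is shown for *Cacnb2*, *Cacna1c* and *Cacnb3*, the members described in most detail, so that their starts can be compared. The windows are the 250 bases before an annotated start in RefSeq on the build GRCr8, written 5′ to 3′ on the strand of the gene, with GC boxes (GGGCGG on either strand) in capitals. Of the 10 genes, 6 had a window in the RefSeq table used here. The windows of *Cacnb2* lie at chr17:82472965-82473214 for the first start and chr17:82596542-82596791 for the second, both on the plus strand, that of *Cacnb3* at chr7:131666301-131666550 on the plus strand and that of *Cacna1c* at chr4:154051749-154051998 on the minus strand.
*Cacnb2*, first start: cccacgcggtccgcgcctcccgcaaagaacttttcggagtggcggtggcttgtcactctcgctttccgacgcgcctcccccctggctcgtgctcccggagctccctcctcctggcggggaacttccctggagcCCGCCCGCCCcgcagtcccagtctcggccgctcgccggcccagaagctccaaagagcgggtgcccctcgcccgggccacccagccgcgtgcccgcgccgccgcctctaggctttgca
*Cacnb2*, second start: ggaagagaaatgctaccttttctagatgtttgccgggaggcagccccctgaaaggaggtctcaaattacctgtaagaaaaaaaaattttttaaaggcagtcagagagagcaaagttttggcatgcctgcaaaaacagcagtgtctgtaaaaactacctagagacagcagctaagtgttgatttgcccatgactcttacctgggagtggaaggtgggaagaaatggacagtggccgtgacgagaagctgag
*Cacnb3*: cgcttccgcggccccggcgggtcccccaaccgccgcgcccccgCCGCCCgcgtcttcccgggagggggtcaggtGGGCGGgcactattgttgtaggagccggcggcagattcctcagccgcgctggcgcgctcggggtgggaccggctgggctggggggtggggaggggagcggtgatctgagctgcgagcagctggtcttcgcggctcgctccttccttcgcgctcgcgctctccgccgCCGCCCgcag
*Cacna1c*: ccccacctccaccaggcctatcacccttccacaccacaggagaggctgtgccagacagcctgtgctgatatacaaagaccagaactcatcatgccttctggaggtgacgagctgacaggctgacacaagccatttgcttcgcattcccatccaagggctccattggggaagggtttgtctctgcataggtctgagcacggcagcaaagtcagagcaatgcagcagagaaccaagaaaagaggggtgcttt

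The first window of *Cacnb2* was 73.2% G and C with 30 CpG sites, and its GC boxes, at -117 to -112 and -113 to -108 from the start, overlap and read on the minus strand. The second window was 45.6% G and C with 3 CpG sites and held no GC box. The window of *Cacnb3* was 76.4% G and C with 35 CpG sites and 3 GC boxes, while that of *Cacna1c* was 54.4% G and C with 3 CpG sites and none. The median over 33469 windows of the same length was 51.2%, with quartiles of 44% and 60%, and 30.5% of them held a GC box. None of the 4 windows held the letters of an AP-1 site (TGANTCA, in 6.34% of all windows), a cAMP response element (TGACGTCA, 1.59%), an EGR site (GCGTGGGCG, 0.478%), a TATA box (TATAAA, 12.9%) or a CArG box (1.5%), each searched on both strands. Which of the *Cacnb2* starts these cells use was not measured, since 1 probe set stood for the gene.

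Of the 9 genes, 7 reached a log2 signal of 6 on 3 or more of the 12 arrays and entered the test, as did 14796 probe sets in all. *Cacna2d2*, with 9 arrays at or above 6, and *Cacna1g*, with 10, were nearest to the minimum among those kept. *Cacna1h*, with 1 array, and *Cacnb4*, with none, were left out. The array medians were 6.68 to 6.76, and 59.8% to 62.2% of probe sets reached 6 on an array. Correlations across the tested probe sets were 0.988 to 0.994 between arrays of a group and 0.962 to 0.993 between groups, and the median SD of a probe set within a group was 0.123. All 9 smooth muscle markers, such as *Acta2* and *Myh11*, had group means of at least 6 in every group, all 6 endothelial markers and the leukocyte markers other than *Cd68* had means under 6, and all 6 fibroblast markers had means of at least 6. None of the 9 smooth muscle markers was called for the knockdown with PBS or with AngII. AngII lowered 3 of them and raised 1 (*Myocd*) with either GapmeR. Of all tested probe sets AngII lowered 17.9% and raised 13.3% with NCGap, and 15.6% and 10.8% with *Alivec*Gap. The summed linear signal of the smooth muscle markers was 36080 to 36810 on the NCGap PBS arrays, 33300 to 35560 with *Alivec*Gap and PBS, 33150 to 34060 with NCGap and AngII and 31770 to 32410 with *Alivec*Gap and AngII. The sum of the fibroblast markers was 3613 to 3685, 4001 to 4316, 2844 to 3267 and 3496 to 3722 in the same order, being higher with *Alivec*Gap than with NCGap under either treatment. Within that list *Dcn*, the proteoglycan decorin, rose by 0.58 (SE 0.105, adjusted p = 0.0283 from limma) and *Mfap5*, a microfibril protein, by 0.49 (adjusted p = 0.0461) with *Alivec*Gap in AngII-treated cells. The other 4 did not pass there, and *Col14a1*, a collagen, had differences of -0.27 with PBS and -0.28 with AngII, against the direction of the sum. The part of these shifts in the channel values was not tested.

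**Figure D1:**
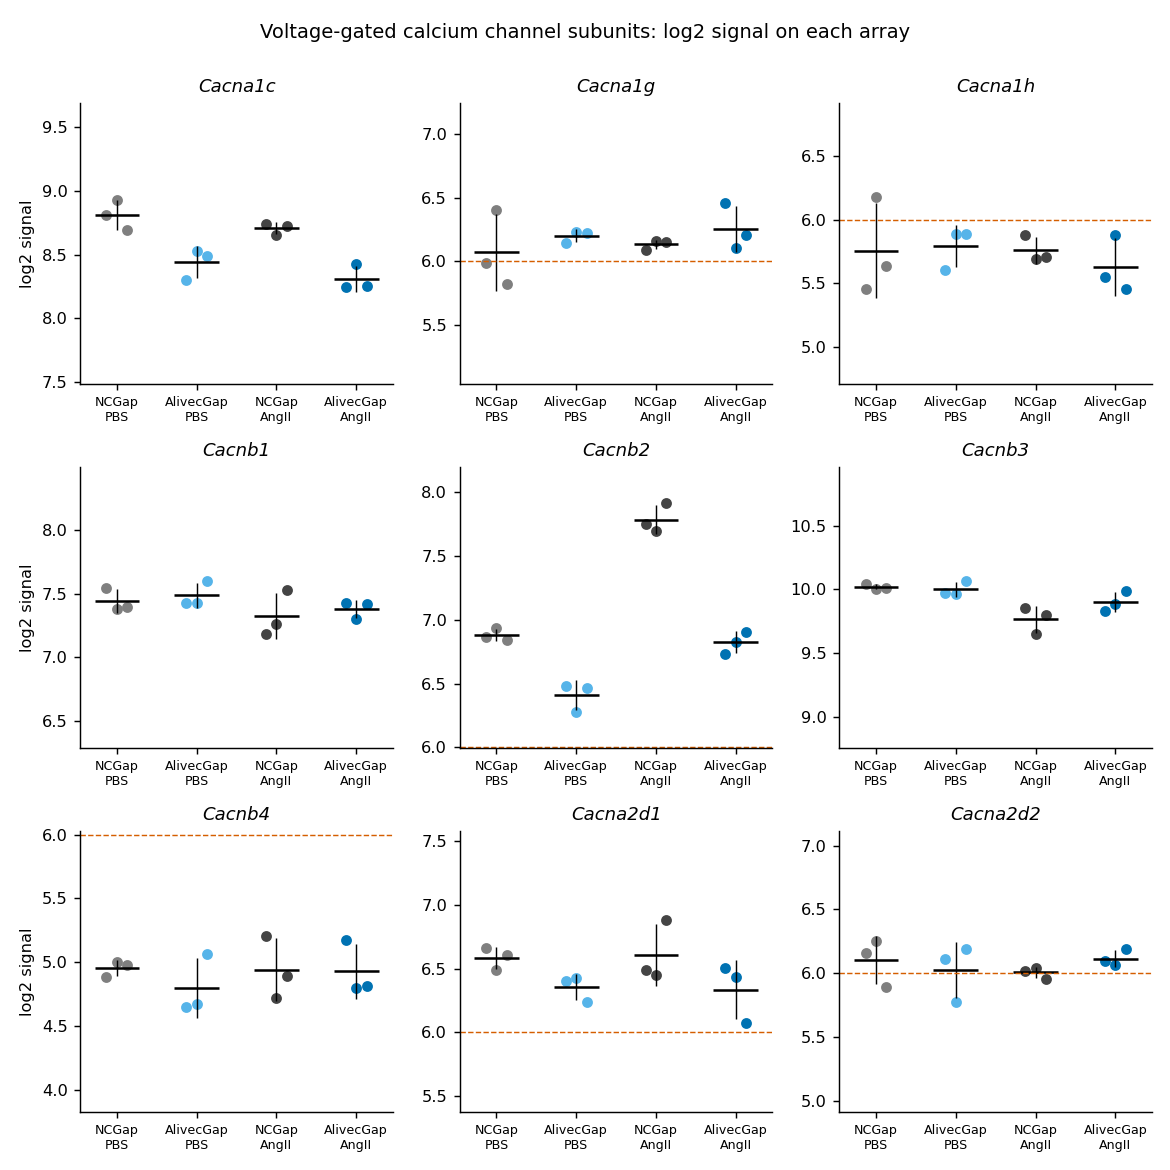
Log2 signal (vertical axis, each panel spanning the same range of 2.2 log2 units) of the 9 subunits with a probe set in the 4 groups (horizontal axis). Points are arrays, horizontal bars group means, vertical lines 1 SD, and the dashed line is a log2 signal of 6, which lies below the panels of *Cacna1c*, *Cacnb1* and *Cacnb3*. *Cacnb2* stands highest on the NCGap AngII arrays (7.70 to 7.92) and lowest on the *Alivec*Gap PBS arrays (6.28 to 6.48), and *Cacna1c* is lower with *Alivec*Gap under either treatment.

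Among the pore subunits, *Cacna1c*, which encodes the L-type pore Cav1.2, had log2 signals of 8.81, 8.93 and 8.69 on the NCGap PBS arrays and 8.30, 8.53 and 8.49 on the *Alivec*Gap PBS arrays. With AngII the arrays gave 8.74, 8.66 and 8.73 for NCGap and 8.25, 8.43 and 8.26 for *Alivec*Gap. Every *Alivec*Gap array lay below every NCGap array of the same treatment, while AngII and PBS arrays of one GapmeR overlapped. With PBS the difference was -0.37 (SE 0.0862, 95% interval -0.56 to -0.18), or 0.774 of the NCGap level, with adjusted p = 0.108 from limma over all tested probe sets. It passed the thresholds of the study, which are at least 1.2-fold and an unadjusted p under 0.05, and not the adjusted test. With AngII, where the comparison was used to choose the set, the difference was -0.40 (95% interval -0.58 to -0.21). AngII itself was accompanied by differences of -0.10 with NCGap (95% interval -0.29 to 0.08, adjusted p = 0.407 from limma) and -0.13 with *Alivec*Gap (95% interval -0.32 to 0.06, adjusted p = 0.310). The AngII responses with the 2 GapmeRs differed by -0.03 (95% interval -0.29 to 0.24, adjusted p = 0.992 for the interaction in limma).

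The T-type pore genes had signals close to the minimum. *Cacna1g*, which encodes Cav3.1, had values of 5.98, 6.41 and 5.82 with NCGap and PBS, 6.14, 6.23 and 6.23 with *Alivec*Gap and PBS, 6.09, 6.16 and 6.15 with NCGap and AngII, and 6.46, 6.11 and 6.21 with *Alivec*Gap and AngII. The groups overlapped in all comparisons. Its differences were 0.13 with *Alivec*Gap in PBS (95% interval -0.15 to 0.41, adjusted p = 0.812 from limma), 0.06 with AngII and NCGap (-0.22 to 0.34, adjusted p = 0.767) and 0.06 with AngII and *Alivec*Gap (-0.23 to 0.34, adjusted p = 0.800). *Cacna1h*, which encodes Cav3.2, had values of 5.45 to 6.17, reached 6 only on NCGap PBS replicate 2, and was not tested.

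The β subunits included the gene that moved most. *Cacnb2* encodes the β2 subunit, which carries L-type pores to the membrane and is known best from the heart. Its log2 signals were 6.87, 6.94 and 6.84 with NCGap and PBS and 6.48, 6.28 and 6.47 with *Alivec*Gap and PBS. With AngII they were 7.75, 7.70 and 7.92 with NCGap and 6.74, 6.83 and 6.91 with *Alivec*Gap. The NCGap AngII arrays were the highest and the *Alivec*Gap PBS arrays the lowest, both apart from all others, and the *Alivec*Gap AngII arrays overlapped the NCGap PBS arrays. The group means were 6.88 ± 0.0496, 6.41 ± 0.114, 7.79 ± 0.115 and 6.82 ± 0.0860 (SD, n = 3 arrays) in this order of NCGap PBS, *Alivec*Gap PBS, NCGap AngII and *Alivec*Gap AngII.

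The fall of *Cacnb2* with *Alivec*Gap in PBS-treated cells used none of the arrays of the AngII comparison in its group means. Those arrays did enter its spread, which the main fit took from all 4 groups. The test is therefore not independent of the arrays by which the set was chosen. With only the PBS groups fitted, *Cacnb2* was not called. In the main fit the difference was -0.47 (SE 0.0823, 95% interval -0.65 to -0.29), or 0.722 of the NCGap level, with adjusted p = 0.0387 from limma. It was the only call among the 7 subunits, where 0.203% of all tested probe sets were called lower and 0.196% higher. At the thresholds of the study 2 of the 7, *Cacnb2* and *Cacna1c*, were lower and none higher, against 2.69% and 2.24% of all tested probe sets. The groups did not overlap, with the *Alivec*Gap arrays lower, for *Cacnb2*, *Cacna1c* and *Cacna2d1*, and this was so for 7.30% of all tested probe sets. The adjusted p of *Cacnb2* ran from 0.0161 to 0.149 over 22 other settings and missed the threshold in 13, with the difference between -0.51 and -0.40. It was 0.123 and 0.149 without NCGap PBS replicates 1 and 2, 0.0801, 0.117 and 0.130 without *Alivec*Gap PBS replicates 1, 2 and 3, 0.0578 and 0.0545 without NCGap AngII replicates 1 and 2, and 0.0626 without *Alivec*Gap AngII replicate 2.

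With AngII the *Cacnb2* difference between *Alivec*Gap and NCGap was -0.96 (SE 0.0823, 95% interval -1.14 to -0.78), or 0.513 of the NCGap level. This is the value by which the set was chosen. The groups did not overlap for *Cacnb2* and *Cacna1c*, with *Alivec*Gap lower, and the same was so for 9.65% of all tested probe sets. Of the 7 subunits, *Cacnb2*, *Cacna1c* and *Cacna2d1* were lower by at least 1.2-fold and none was higher, where 3.98% of all tested probe sets were lower and 3.78% higher by that much. *Cacnb2* is in these counts by the choice of the set, and *Cacna2d1* passed at 1.21-fold with overlapping groups. The counts are therefore descriptions and are not read as an excess over these shares. AngII was accompanied by a *Cacnb2* difference of 0.91 (95% interval 0.73 to 1.09) with NCGap, or 1.87-fold, and of 0.41 (95% interval 0.23 to 0.59) with *Alivec*Gap, or 1.33-fold. The AngII arrays lay above the PBS arrays with either GapmeR, as for 17.0% of all tested probe sets with NCGap and 16.9% with *Alivec*Gap. The difference of log2 signal that came with AngII was thus 45.5% as large with *Alivec*Gap as with NCGap, and the 2 responses differed by -0.49 (95% interval -0.75 to -0.24). The AngII response with NCGap and the knockdown difference with AngII share the NCGap AngII arrays, and no test is given for either.

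**Figure D2:**
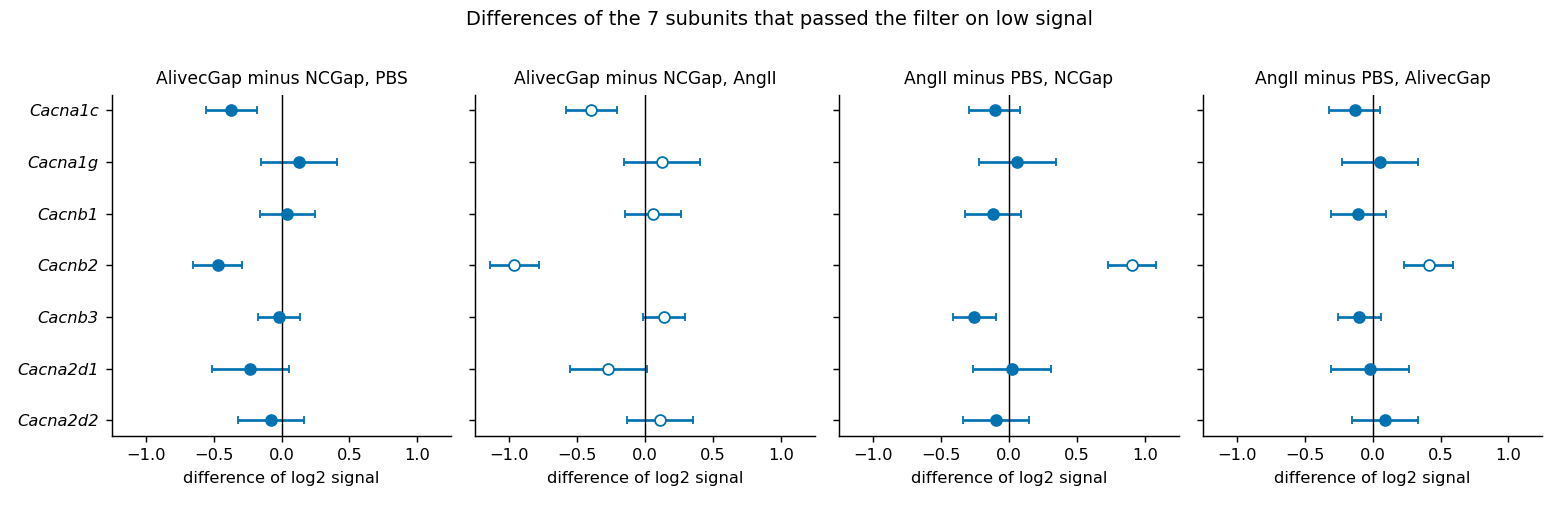
Differences of log2 signal (horizontal axes) of the 7 subunits that passed the minimum (vertical axis) in 4 comparisons. Points are differences of group means over 3 arrays each, bars are 95% intervals of the fit, filled points were tested and open points are descriptions only. *Cacnb2* and *Cacna1c* have intervals below 0 for the knockdown with PBS, and *Cacnb3* has one below 0 for AngII with NCGap. The panel of the knockdown with AngII shows the comparison by which the set was chosen, so its intervals are not read as tests.

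*Cacnb3*, the β3 subunit of many smooth muscle and neuronal channels, had log2 signals of 10.05, 10.01 and 10.01 with NCGap and PBS and 9.86, 9.65 and 9.80 with NCGap and AngII. With *Alivec*Gap the signals were 9.97, 9.97 and 10.07 with PBS and 9.83, 9.89 and 9.99 with AngII. All of the NCGap AngII arrays lay below all of the NCGap PBS arrays, as for 25.2% of all tested probe sets, whereas the *Alivec*Gap arrays overlapped. The AngII difference was -0.25 with NCGap (SE 0.0720, 95% interval -0.41 to -0.10, adjusted p = 0.0175 from limma), or 0.838 of the PBS level, and -0.10 with *Alivec*Gap (95% interval -0.25 to 0.06, adjusted p = 0.365). The fall with NCGap, 1.19-fold, did not reach the 1.2-fold threshold of the study. The NCGap difference was the only call among the 6 subunits tested for AngII with NCGap. Of all tested probe sets 17.9% were called lower there and 13.3% higher. The 1 call among 6 is no more than the share called lower would give. With *Alivec*Gap none of the 6 was called, where 15.6% of all were lower and 10.8% higher, and their adjusted p values were 0.310 or more. The difference between the responses was 0.16 (95% interval -0.06 to 0.38, adjusted p = 0.932 for the interaction in limma), so a change with one GapmeR only was not shown. The NCGap call was lost when arrays were centred on their median (adjusted p = 0.0696), when only those groups were fitted (0.0531), and without NCGap PBS replicate 1 (0.0555) or NCGap AngII replicate 2 (0.0798).

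With the knockdown *Cacnb3* differed by -0.02 with PBS (95% interval -0.18 to 0.14, adjusted p = 0.956 from limma) and by 0.14 with AngII (95% interval -0.02 to 0.29). *Cacnb1*, the β1 subunit of the skeletal muscle channel that other tissues also express, had 7.55, 7.38 and 7.40 with NCGap and PBS, 7.43, 7.43 and 7.60 with *Alivec*Gap and PBS, 7.18, 7.27 and 7.52 with NCGap and AngII, and 7.43, 7.30 and 7.42 with *Alivec*Gap and AngII. Its PBS knockdown difference was 0.04 (95% interval -0.16 to 0.25, adjusted p = 0.924 from limma). With AngII it differed by -0.12 with NCGap (-0.32 to 0.09, adjusted p = 0.387) and by -0.10 with *Alivec*Gap (-0.31 to 0.10, adjusted p = 0.467), where the *Alivec*Gap groups did not overlap, as for 26.6% of all tested probe sets that were lower. *Cacnb4*, the β4 subunit best known from the cerebellum, had values of 4.65 to 5.21 on all arrays, under the minimum. Among the tested β subunits the *Alivec*Gap and NCGap arrays were apart for *Cacnb2* alone, lower with PBS and with AngII. Of all tested probe sets, 7.30% were apart in that direction with PBS and 9.65% with AngII. The separation with AngII belongs to the comparison by which the set was chosen.

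Of the α2δ subunits, *Cacna2d1*, the α2δ1 subunit that binds gabapentin and accompanies L-type pores in muscle, had 6.66, 6.49 and 6.60 with NCGap and PBS and 6.40, 6.42 and 6.24 with *Alivec*Gap and PBS. With AngII it had 6.49, 6.45 and 6.88 with NCGap and 6.50, 6.43 and 6.07 with *Alivec*Gap. The PBS groups did not overlap, and the AngII groups did. The knockdown difference was -0.23 with PBS (SE 0.131, 95% interval -0.51 to 0.06, adjusted p = 0.634 from limma) and -0.27 with AngII (95% interval -0.56 to 0.01). AngII was accompanied by 0.02 with NCGap (-0.26 to 0.31, adjusted p = 0.916) and -0.02 with *Alivec*Gap (-0.30 to 0.27, adjusted p = 0.941).

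*Cacna2d2*, the α2δ2 subunit, had 6.16, 6.25 and 5.89 with NCGap and PBS, 6.11, 5.78 and 6.19 with *Alivec*Gap and PBS, 6.02, 6.04 and 5.96 with NCGap and AngII, and 6.09, 6.07 and 6.19 with *Alivec*Gap and AngII. These lie around the minimum of 6. The AngII groups did not overlap, the *Alivec*Gap arrays being higher by 0.11, and 8.60% of all tested probe sets were apart in that direction. With PBS the knockdown difference was -0.08 (95% interval -0.32 to 0.17, adjusted p = 0.881 from limma), and with AngII the differences were -0.09 with NCGap (-0.34 to 0.15, adjusted p = 0.574) and 0.09 with *Alivec*Gap (-0.15 to 0.33, adjusted p = 0.615).

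No subunit was called for the interaction of GapmeR and AngII among the 6 tested, and no probe set of all 14796 was either at an adjusted p under 0.05 in limma, while 814, or 5.50%, had an unadjusted p under 0.05. None of the 6 was among these. The median difference over the 7 subunits was -0.08 for the knockdown with PBS and 0.06 with AngII, and -0.09 and -0.02 for AngII with NCGap and with *Alivec*Gap. Over all tested probe sets the medians were 0.003, 0.004, -0.05 and -0.04.

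The remaining subunit genes of the family were examined as a list of 16, of which 15 had a probe set and 7 passed the minimum (*Cacna1i*, *Cacna1s*, *Cacna2d4*, *Cacng1*, *Cacng2*, *Cacng4* and *Cacng6*). *Cacna1i*, which encodes the T-type pore Cav3.3, was the only one past the adjusted threshold. It was so only in the AngII comparisons, where it is given as a description. Its log2 signals were 5.78, 5.62 and 5.30 with NCGap and PBS and 6.10, 5.43 and 6.21 with *Alivec*Gap and PBS, against 7.81, 6.87 and 7.72 with NCGap and AngII and 7.19, 7.77 and 7.42 with *Alivec*Gap and AngII. Every AngII array lay above every PBS array. Its signal with AngII was at least 2.77-fold that with PBS for NCGap (difference 1.90, SE 0.262) and at least 2.75-fold for *Alivec*Gap (difference 1.55, SE 0.262). These are bounds because both PBS means were under 6 and were set to 6. Of its PBS arrays only those at 6.10 and 6.21 reached 6, fewer than the 3 arrays needed. It thus passed the minimum only through its AngII arrays. A difference was built into its entry to the test, and no AngII test is given. The knockdown difference was 0.34 with PBS (95% interval -0.23 to 0.91, adjusted p = 0.729 from limma), with both means under 6, and -0.01 with AngII (95% interval -0.58 to 0.56, adjusted p = 0.996). The responses with the 2 GapmeRs differed by -0.35 (95% interval -1.16 to 0.46, adjusted p = 0.986 for the interaction).

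None of the other tested subunits of the list was called. *Cacna1s*, the pore of the skeletal muscle L-type channel, had 6.21 to 6.77 on all arrays, *Cacna2d4*, an α2δ subunit known from the retina, 6.58 to 7.21, and *Cacng1*, the γ1 subunit of skeletal muscle, 6.90 to 7.33. *Cacng2*, *Cacng4* and *Cacng6*, of the γ family, lay between 5.58 and 6.44. Their adjusted p values in limma were 0.326 or more in all 5 comparisons. The 8 that were not tested included the pores of neuronal channels *Cacna1a*, *Cacna1b* and *Cacna1e*, with group means under 6 throughout.

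**Figure D3:**
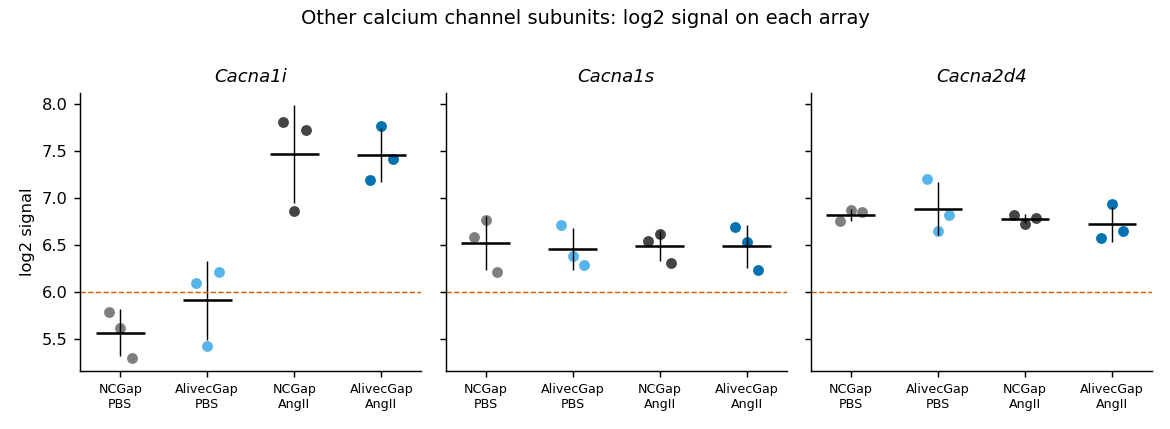
Log2 signal (vertical axis) of 3 further pore and α2δ subunit genes, *Cacna1i*, *Cacna1s* and *Cacna2d4*, in the 4 groups (horizontal axis). Points are arrays, horizontal bars group means, vertical lines 1 SD and the dashed line a log2 signal of 6. *Cacna1i* runs from 5.30 to 6.21 on the PBS arrays and from 6.87 to 7.81 on the AngII arrays, while *Cacna1s* and *Cacna2d4* overlap in all groups.

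Genes that act on the channels or handle calcium beside them were examined as 5 lists of 85 genes, these further subunits included, of which 75 had a probe set and 55 passed the minimum. AngII with NCGap lowered 7 and raised 14 of the 55, against 17.9% and 13.3% of all tested probe sets, and AngII with *Alivec*Gap lowered 3 and raised 13, against 15.6% and 10.8%. Both counts of raised genes include *Cacna1i*, which entered the test only through its AngII arrays and whose AngII difference is a description. *Alivec*Gap raised 1 (*Ano1*) and lowered none with PBS, where 0.196% of all tested probe sets were higher, and lowered 1 (*Kcnq5*) and raised none with AngII, where 0.480% were lower and 0.338% higher. None was called for the interaction.

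Among channel regulators, 12 of 20 were tested and AngII with NCGap lowered 2 and raised 3, where 17.9% of all tested probe sets were lower and 13.3% higher. *Rrad*, a small GTPase that binds β subunits and holds back L-type current, had 5.71, 6.01 and 6.47 with NCGap and PBS and 6.82, 7.08 and 7.41 with NCGap and AngII. It rose 2.06-fold (adjusted p = 0.0016 from limma) and, with *Alivec*Gap, 2.15-fold (adjusted p = 0.0014). *Akap5*, an anchor that holds protein kinase A and calcineurin at the L-type channel, fell by 1.38 with NCGap (adjusted p = 1.4e-04) and by 1.33 with *Alivec*Gap (adjusted p = 2.5e-04). *Akap6*, an anchor at the nuclear envelope that spans 440.3 kb, rose by 0.71 with NCGap (adjusted p = 0.0011), and its difference with *Alivec*Gap was 0.33 (adjusted p = 0.0788). The gap between these 2 responses was -0.38 (95% interval -0.78 to 0.01, adjusted p = 0.918 for the interaction). *Bin1*, which shapes membrane tubules in muscle, rose by 0.43 and 0.35, and *Calm3*, a calmodulin gene, fell by 0.28 and 0.29 with NCGap and *Alivec*Gap.

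Store release and entry genes were raised in 4 of 16 tested cases with either GapmeR. Of all tested probe sets, AngII raised 13.3% with NCGap and 10.8% with *Alivec*Gap. *Trpc4*, a receptor-operated cation channel, rose by 1.39 with NCGap (2.62-fold, adjusted p = 5.5e-06 from limma) and by 1.12 with *Alivec*Gap (2.17-fold, adjusted p = 4.5e-05). *Jph2*, which ties the store to the cell membrane, rose by 0.69 and 0.90, *Itpr3*, a store release channel, by 0.40 and 0.53, and *Orai1*, the pore of store-operated entry, by 0.44 and 0.42. The 2 that fell with NCGap, where 17.9% of all tested probe sets were lower, were *Itpr1* by 0.30 and *Orai2* by 0.37. Both were named after their values were seen.

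Calcium removal genes were tested in 13 of 15 cases, and AngII raised 4 with each GapmeR, against 13.3% of all tested probe sets with NCGap and 10.8% with *Alivec*Gap. *Atp2b1*, the calcium pump of the cell membrane, rose 2.30-fold with NCGap (adjusted p = 1.6e-07 from limma) and 1.92-fold with *Alivec*Gap (adjusted p = 1.8e-06). *Atp2a2*, the pump of the store, rose by 0.44 and 0.36, and *Slc8a1*, the sodium and calcium exchanger, by 0.33 and 0.23. *Pln*, phospholamban, which restrains the store pump, fell by 0.76 (adjusted p = 0.0020) and 0.78 (adjusted p = 0.0021). *Atp2a1* fell by 0.34 and *Atp2c1* rose by 0.31 with NCGap, and *Atp2b4* rose by 0.26 with *Alivec*Gap, all of them named after their values were seen.

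Channels that set the membrane potential, and so the opening of calcium channels, were tested in 7 of 14 cases. *Kcnn4*, a calcium-activated potassium channel of proliferating smooth muscle, rose 6.13-fold with NCGap (difference 2.62, adjusted p = 5.9e-07 from limma) and 5.43-fold with *Alivec*Gap (difference 2.44, adjusted p = 1.5e-06). *Ano1*, a calcium-activated chloride channel, had 5.67, 5.84 and 6.22 with NCGap and PBS, 7.08, 6.76 and 6.91 with *Alivec*Gap and PBS, 7.79, 7.58 and 7.56 with NCGap and AngII, and 8.02, 7.99 and 7.99 with *Alivec*Gap and AngII. It was the gene called higher with *Alivec*Gap in PBS, by at least 1.89-fold (adjusted p = 0.0131), and AngII raised it at least 3.13-fold with NCGap (adjusted p = 8.0e-07) and 2.12-fold with *Alivec*Gap (adjusted p = 5.9e-05). The *Ano1* responses differed by -0.66 (95% interval -1.05 to -0.27, adjusted p = 0.857 for the interaction). *Clcn3*, a chloride and proton exchanger, fell by 0.43 with AngII and NCGap (adjusted p = 0.0038), and *Kcnq5*, a voltage-gated potassium channel, fell by 0.46 with *Alivec*Gap in AngII (adjusted p = 0.0427).

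**Figure D4:**
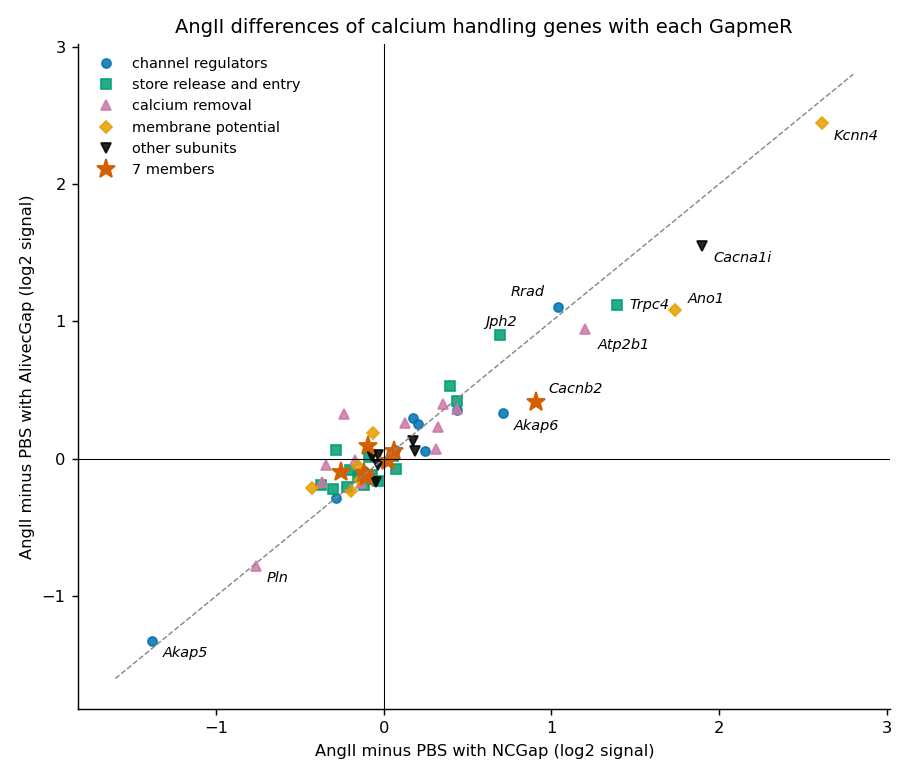
Difference of log2 signal with AngII when NCGap was present (horizontal axis) against that when *Alivec*Gap was present (vertical axis) for the tested genes of 5 lists and the 7 subunits (stars). Each point is a difference of group means over 3 arrays each and the dashed line marks equal differences. *Kcnn4*, *Trpc4* and *Cacna1i* are high on both axes, and *Cacnb2* lies below the line at 0.91 and 0.41.

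Gene length is set here beside the knockdown values of the subunits. *Cacnb2* spans 345.5 kb in the RefSeq table of GRCr8, *Cacna2d1* 428 kb and *Cacna1c* 620.8 kb. These 3 longest of the 7 tested subunits had the 3 lowest differences with *Alivec*Gap, both with PBS and with AngII. The comparison with AngII is the one by which the set was chosen. *Cacna2d2* spans 131.3 kb, *Cacna1g* 68.04 kb, *Cacnb1* 20.66 kb and *Cacnb3* 12.28 kb, and their PBS differences ran from -0.08 to 0.13. Of the 204 named probe sets of genes of at least 300 kb, 20.6% were lower with *Alivec*Gap in PBS at the thresholds of the study and 30.4% in AngII, with median differences of -0.14 and -0.16. For the 5785 of genes under 25 kb the shares were 1.69% and 1.31%, with medians of 0.01 and 0.02. Differences below 0 made up 74% with PBS and 80.9% with AngII in the longest class, the rest of it going the other way. In the shortest class they made up 46.1% and 41.5%. The AngII difference with NCGap did not follow this order, the medians being -0.07 for the longest and -0.05 for the shortest class, and that of *Cacnb2* was 0.91. With *Alivec*Gap the AngII medians ran from -0.03 for the shortest class over -0.04 and -0.06 to -0.10 for the longest, and that of *Cacnb2* was 0.41. The part of gene length in the *Cacnb2* and *Cacna1c* values was not tested.

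**Figure D5:**
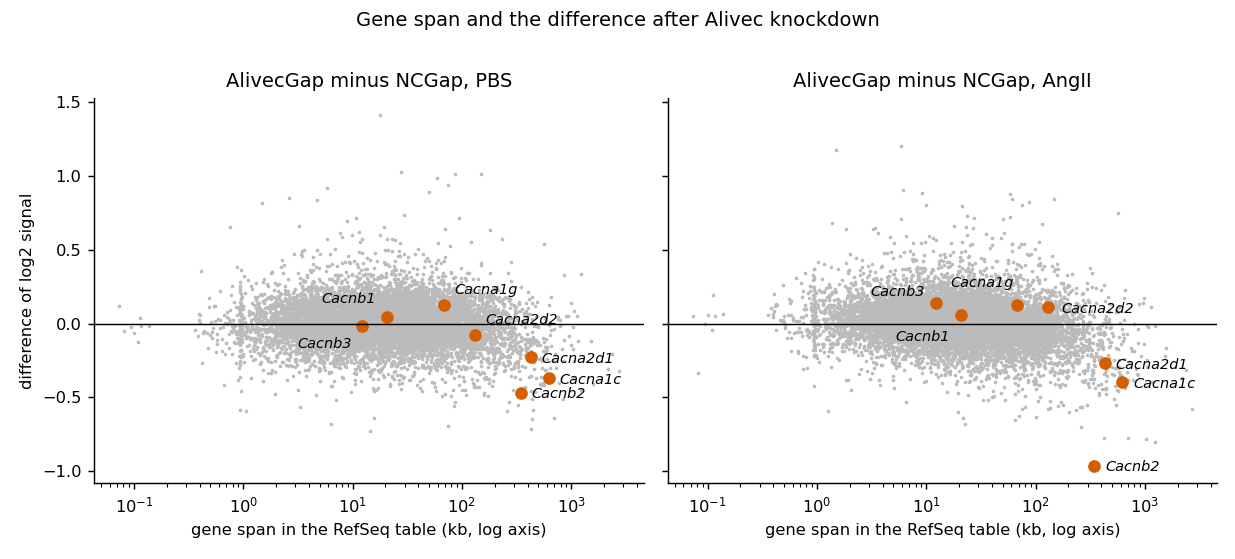
Difference of log2 signal between *Alivec*Gap and NCGap (vertical axis) against the span of the gene in kb (horizontal log axis) for the tested named probe sets, with PBS at the left and AngII at the right. Grey points are all genes and orange points the 7 tested subunits. *Cacnb2*, *Cacna1c* and *Cacna2d1* lie at the long end with differences of -0.47, -0.37 and -0.23 with PBS.

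The genes whose pattern was most like that of *Cacnb2* were found by Pearson's r over the 12 arrays among 10190 named probe sets, as a description, since the arrays fall into the same 4 groups. They were *Gnpnat1*, an enzyme of UDP-N-acetylglucosamine synthesis (r = 0.970), *Id3*, an inhibitor of basic helix-loop-helix factors (0.943), *Slc4a4*, a sodium bicarbonate cotransporter (0.941), *Zc3h12c*, a zinc finger protein (0.938), and *Trip10*, an adaptor of the actin cytoskeleton (0.938). Each had its highest group mean with NCGap and AngII and its lowest with *Alivec*Gap and PBS, an order largely built in by picking them for likeness to *Cacnb2*. *Zc3h12c* had differences of 0.70 for AngII with NCGap, 0.25 for AngII with *Alivec*Gap, -0.21 for *Alivec*Gap with PBS and -0.66 for *Alivec*Gap with AngII. The genes most like *Cacna1c* were *Hs6st2*, a heparan sulfate sulfotransferase (0.941), *Spon1*, a secreted matrix protein (0.932), and *Lpp*, a focal adhesion protein (0.931). Picked in the same way, each of them had lower group means with *Alivec*Gap under either treatment, by 0.45 and 0.55 for *Hs6st2*, 0.28 and 0.40 for *Spon1* and 0.30 and 0.24 for *Lpp* with PBS and with AngII.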

How the data were processed

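RNA of 12 RVSMC samples was hybridized to Clariom S rat arrays. The deposited values are log2 signals, which the authors made from raw intensity data by the Robust Multichip Average method in Partek. The genome build of the probe sets is not given in the sources used here, and no column of other samples was found (0). The normalization, which makes the distributions of the arrays alike, was taken as deposited.

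The 14796 probe sets that reached a log2 signal of 6 on 3 or more of 12 arrays were fitted in R 4.3.3 with limma 3.58.1 (lmFit on 4 group means, eBayes, Benjamini-Hochberg adjustment), and a call is an adjusted p under 0.05. The study used Partek's analysis of variance, and an ordinary fit without moderation of the spread was run as an alternative. Where 1 of 2 group means was under 6 it was set to 6 and the fold is a bound. Where both were under 6 no fold is given. The fit was tested on simulated data.

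The members, the gene lists and the tests were chosen with earlier results of these data known. Named genes are all members, the tested genes of the list of further subunits, up to 4 genes of smallest p of each pathway list and comparison, and the 5 and 3 genes most like *Cacnb2* and *Cacna1c*, other names being marked as chosen later. Alternatives were other filters, normalizations and priors, array weights, only the groups compared, the replicate number as a term, and each array left out. Promoter windows and gene spans came from RefSeq tables of GRCr8, with plots in Python 3.11.15 and matplotlib 3.10.9. The number of arrays limits the precision.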

Additional observations from a re-analysis of the deposited data

How the results depend on the processing

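The subunit calls were recomputed under 22 other settings. The PBS knockdown count of 1 (*Cacnb2*) became 0 with no moderation of the spread, with no filter, with a minimum of log2 5, with centred arrays and with only the groups compared, and 2 with a prior that follows the signal and with array weights, which added *Cacna1c* (adjusted p = 0.0316 and 0.0405). Without one array it was 0 to 1. The AngII count with NCGap of 1 (*Cacnb3*) became 0 with centred arrays and with only the groups compared, and was 0 to 1 without one array. The described count with AngII was 2 to 3, and the counts for AngII with *Alivec*Gap and for the interaction stayed at 0. Over all probe sets, 59 were called for the PBS knockdown, 12 with no moderation, 204 with the prior that follows the signal, 10 with no filter, 21 with a minimum of log2 5, 1 with only the groups compared and 195 with array weights. With NCGap and AngII 2652 were lower and 1968 higher, and 1834 and 2308 with centred arrays, while the knockdown gave 30 and 29 with PBS (18 and 24 centred) and 71 and 50 with AngII (62 and 29 centred). The causes were not tested.

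With the replicate block the PBS knockdown count was 1 (*Cacnb2*, adjusted p = 0.0370), the described AngII knockdown count 3, the count for AngII with NCGap 1 (*Cacnb3*, adjusted p = 0.0167) and the others 0, so it changed no call of a subunit. Deviations of same-numbered arrays correlated at -0.09 to 0.32 and passed 0.1 in 9 of 18 pairs, and those of other-numbered arrays correlated at -0.34 to 0.27. The own number correlated best in 24 of 36 cases, each with 3 arrays to choose from. The labels do not say what the numbers stand for. The main fit left the number out, so variation shared by same-numbered arrays stays in its spread, and its source was not tested.

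Of 814 single differences of 37 subunit results, 756 kept their side of the threshold and, but for 1, their direction, 17 missed it, 2 passed it newly and 39, none of them called, changed sign. The exception was the AngII knockdown difference of *Cacnb1*, a description without a test, which was -0.0139 without NCGap AngII replicate 1. The 39 were *Cacnb1* with PBS knockdown (-0.0152) and *Cacna2d1* with AngII and NCGap (-0.0309), with AngII and *Alivec*Gap (0.00168) and in the interaction (0.0326) under array weights, *Cacna2d1* with AngII and *Alivec*Gap (0.0050) and the *Cacnb1* interaction (-0.0220) with centred arrays, and the *Cacna1c* interaction (0.0298) with arrays quantile normalized once more. Without one array the PBS knockdown ran from -0.18 to 0.049 for *Cacna2d2* and -0.0131 to 0.0963 for *Cacnb1*, AngII with NCGap from -0.12 to 0.10 for *Cacna2d1* and -0.062 to 0.23 for *Cacna1g*, AngII with *Alivec*Gap from -0.10 to 0.11 for *Cacna2d1*, -0.0348 to 0.17 for *Cacna2d2* and -0.0451 to 0.13 for *Cacna1g*, and the interaction from -0.13 to 0.10 for *Cacna2d1*, -0.0968 to 0.0341 for *Cacna1c*, -0.17 to 0.12 for *Cacna1g* and -0.0575 to 0.11 for *Cacnb1*. Signals near or under log2 6 limit what can be said of *Cacna1g*, *Cacna1h*, *Cacnb4* and *Cacna2d2*. Not far above 6 were also *Cacna2d1*, at 6.07 to 6.88, and *Cacnb2* on the PBS arrays, at 6.28 to 6.94. Of the markers of Schwann cells, neurons, heart and skeletal muscle, *Ckm*, *Myl7* and *Sox10* had group means of 6.61 to 6.98. The others had means under 6 in some or all groups.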
